A study of Mus musculus with 15 samples.

Results

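Disease-associated microglia genes are a group of 10 genes of the 24420 gene symbols counted in this study of mouse cerebellum: Trem2, Axl, Clec7a, Itgax, Cd22, Lpl, Cst7, Mmp12, Ccl3 and Ccl4. They were chosen by name, as genes known to mark activated microglia, with earlier results of these counts in view, and their counts were summed per group because most of them are low. All 10 were in the table and all 10 passed the filter on low counts. The filter asks for a minimum level in 5 libraries, and for 7 members fewer than 5 WT libraries reached it, so these passed only with the mutant groups in which they are higher. Of the 7, Cst7, Mmp12, Ccl4 and Cd22 had no WT library at that level, Ccl3 had 1, and Itgax and Clec7a had 4 each.

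Cerebellar RNA was sequenced in 3 groups with 5 libraries each. The 82Q_M120A mice carry Atxn1[82Q] together with CalphaLoxM120A, are of the strain given as Mix:c57Bl/6J:FVB/nJ, and were 8 weeks old. The 82Q mice carry Atxn1[82Q] on FVB/nJ, and the WT mice are wild type on FVB/nJ, both at 9 weeks. Atxn1[82Q] encodes ataxin-1 with an expanded glutamine stretch, the lesion of spinocerebellar ataxia type 1, and the series' text calls it a knock-in. CalphaLoxM120A alters the catalytic subunit Calpha of protein kinase A, the kinase that the study links to a phosphorylation site on ataxin-1. The promoter that drives Atxn1[82Q], and the cells in which the Calpha allele is altered, have no description in the sources used here, no group carries the kinase allele alone, and genotype, strain and age cannot be told apart in any comparison with 82Q_M120A. The labels do not say whether the 5 libraries of a group came from separate animals, so p-values measure the spread between these libraries, which may be technical.

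Microglia are the resident macrophages of the brain. In mouse models of neurodegeneration part of them leave the surveying state and take up a program known as disease-associated, in which the lipid-sensing receptor Trem2 signals through the adaptor Tyrobp and genes of lipid handling, proteolysis and chemotaxis come on while genes of the surveying state (P2ry12, Tmem119, Cx3cr1) go down. Itgax, Clec7a and Cst7 are scarcely expressed by surveying microglia, whereas Trem2 is present in both states and Axl is also expressed by cells other than microglia. In bulk cerebellar RNA a higher level can come from more such cells or from more RNA per cell, and these cannot be told apart here.

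The promoters of the members were searched for short motifs, since sequence played no part in how they were chosen. RefSeq promoter windows (250 bases before to 50 after a start, GRCm38.p6, the mm10 assembly) were found for 8 of the 10 members. Windows were searched on both strands for GAGGAAGT, a form of the site of the macrophage factor PU.1, and for a form of the NF-kB site. Also searched were TGANTCA, a loose form of the AP-1 site with any base (N) in the middle, and CACGTG, the E-box of MITF and TFE proteins. TGANTCA was found at 4 of 8 members (Itgax, Cst7, Mmp12 and Trem2), against 8.97% of 27025 genes with a window. The match was TGAGTCA at Itgax and Mmp12, TGATTCA at Cst7 and TGAATCA at Trem2, and both shares cover any middle base. GAGGAAGT was found at Mmp12 alone (3.69% of genes), the NF-kB form at Axl alone (22.9%), and CACGTG at none of the 8 (8.09%). None of the matches overlapped. The windows with TGANTCA are shown 5′ to 3′ on the gene's strand with the match in capitals: Itgax (chr7:128129300-128129599, plus strand), Cst7 (chr2:150570165-150570464, plus), the start of Mmp12 that holds the match (chr9:7347124-7347423, plus) and Trem2 (chr17:48346151-48346450, plus). The match starts 56 bases before the start in Itgax, 6 in Cst7, 44 in Mmp12 and 9 in Trem2.
Itgax: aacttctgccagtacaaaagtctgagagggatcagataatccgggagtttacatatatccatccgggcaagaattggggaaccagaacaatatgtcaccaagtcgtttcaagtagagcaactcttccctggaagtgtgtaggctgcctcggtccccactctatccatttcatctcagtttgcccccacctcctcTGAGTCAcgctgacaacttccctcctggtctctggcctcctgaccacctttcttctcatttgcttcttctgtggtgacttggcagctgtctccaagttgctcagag
Cst7: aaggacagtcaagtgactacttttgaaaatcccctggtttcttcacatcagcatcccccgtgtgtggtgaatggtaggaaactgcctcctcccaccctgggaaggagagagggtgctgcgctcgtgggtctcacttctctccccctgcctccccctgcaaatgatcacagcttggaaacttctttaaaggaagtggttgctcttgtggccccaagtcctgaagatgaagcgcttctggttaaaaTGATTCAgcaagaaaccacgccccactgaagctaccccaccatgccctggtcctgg
Mmp12: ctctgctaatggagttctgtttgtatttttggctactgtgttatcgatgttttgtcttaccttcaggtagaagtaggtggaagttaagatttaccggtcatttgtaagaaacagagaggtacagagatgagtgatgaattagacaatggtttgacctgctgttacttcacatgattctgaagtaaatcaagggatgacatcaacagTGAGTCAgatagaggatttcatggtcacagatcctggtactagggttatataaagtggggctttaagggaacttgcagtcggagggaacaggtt
Trem2: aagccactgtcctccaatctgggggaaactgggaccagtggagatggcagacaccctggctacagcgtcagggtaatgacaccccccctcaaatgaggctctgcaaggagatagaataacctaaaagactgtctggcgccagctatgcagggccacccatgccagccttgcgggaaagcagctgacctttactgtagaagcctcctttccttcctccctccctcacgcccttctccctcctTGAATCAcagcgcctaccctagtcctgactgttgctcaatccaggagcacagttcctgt
A match is a run of letters, and binding was not measured.

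Library totals ran from 72.0 to 99.4 M counts (M, mega) in 82Q_M120A, from 70.6 to 96.5 M in 82Q and from 38.3 to 83.0 M in WT, where WT-5 is the shallowest (libraries are numbered by column order within a group). Levels are CPM, each count divided by its library total in mega counts after TMM scaling, which sets libraries to a common size. Fold changes are log2, given with an approximate standard error, from edgeR's quasi-likelihood test in one model over the 15 libraries, with Benjamini-Hochberg adjustment over 16808 tested genes and a call at adjusted p under 0.05. The libraries differed widely in choroid plexus RNA: the summed level of 5 choroid genes was 12.1 to 2030 CPM in 82Q_M120A, 29.5 to 2760 in 82Q and 26.3 to 2570 in WT, with over 1000 CPM in 1, 2 and 4 libraries of these groups. The 5 Purkinje cell genes summed to 2710 to 3650 CPM in 82Q_M120A, 2700 to 3380 in 82Q and 7320 to 8310 in WT.

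Against WT, nearly the whole group stood higher in both mutant groups. In 82Q_M120A, 9 of 10 members were called higher, while 18.6% of all tested genes were higher and 17.8% lower, and in 82Q 10 of 10, while 8.63% of all tested genes were higher and 10.1% lower. In each comparison 9 members were over 2-fold higher, as were 2.22% of tested genes in 82Q_M120A and 0.714% in 82Q. The groups did not overlap for 9 members in 82Q_M120A against WT (12.4% of all tested genes lay above WT without overlap) and for 10 in 82Q against WT (6.81%). The median log2 fold change of the members was 2.90 in 82Q_M120A and 2.57 in 82Q, beside 0.01 for all tested genes in each comparison. Because the members were picked with these differences known, and both comparisons share the WT libraries, these counts describe the group and are given with no p. Axl is the member that was not higher in 82Q_M120A, and its call in 82Q was lost when WT-4, WT-5, 82Q-2 or 82Q-4 was left out, as was that of Clec7a without WT-1, WT-4, 82Q-3 or 82Q-4.

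**Figure D1:**
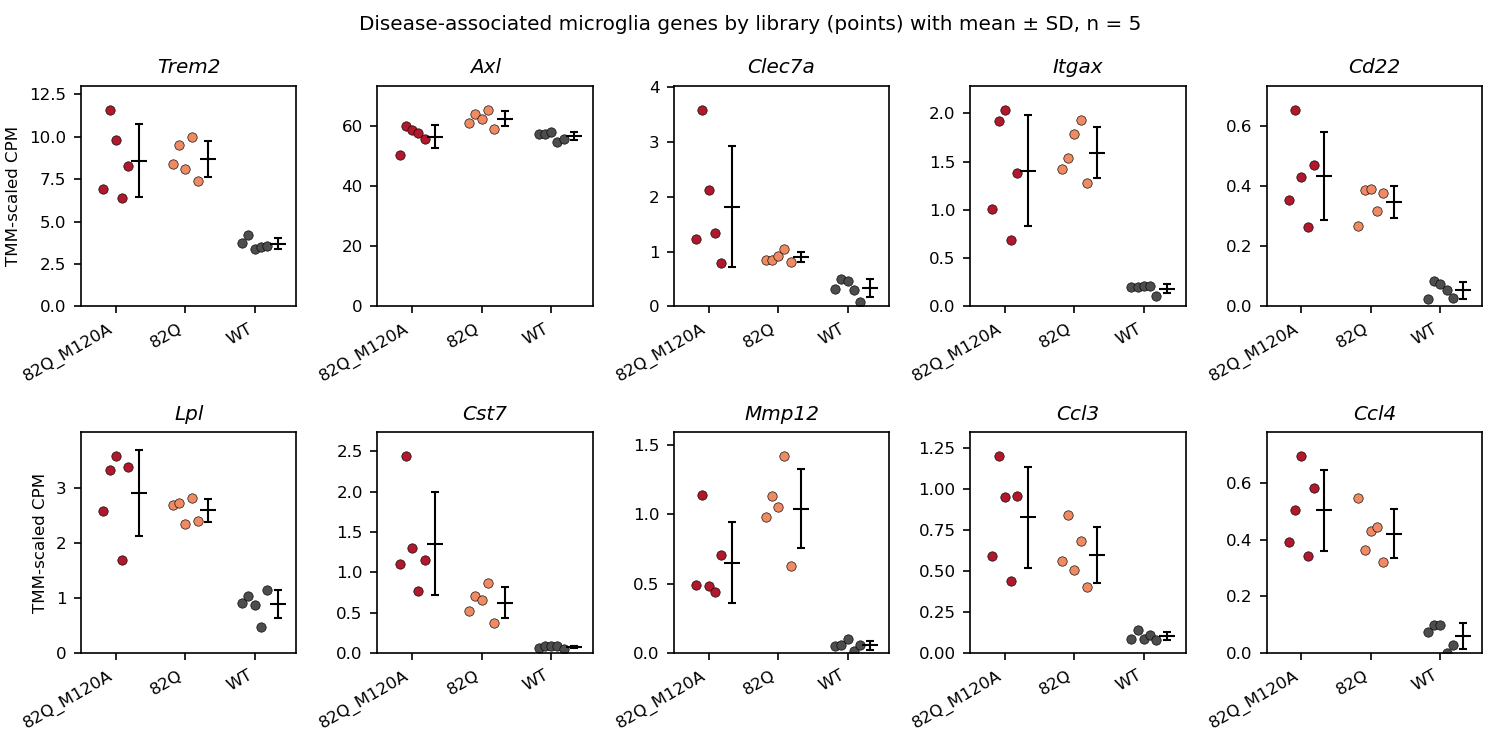
TMM-scaled CPM (y axis, from 0) of each of the 10 genes in every library (points) of 82Q_M120A, 82Q and WT, with the group mean and SD (n = 5) beside them. All points of 82Q_M120A and 82Q lie above all WT points in 9 panels, the exception being Axl, where only 82Q lies above WT.

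Among the receptors, Trem2 (chr17:48346401-48354147, plus strand) was the most abundant member that microglia express selectively. Its CPM were 6.92, 11.6, 9.82, 6.38 and 8.27 in 82Q_M120A, 8.39, 9.51, 8.11, 9.98 and 7.38 in 82Q, and 3.76, 4.23, 3.36, 3.53 and 3.58 in WT. Every mutant library lay above every WT library, and the 82Q libraries lay within the wider range of 82Q_M120A. The log2 fold change was 1.22 ± 0.14 in 82Q_M120A and 1.23 ± 0.14 in 82Q against WT, on 3776, 3583 and 1257 summed counts in 82Q_M120A, 82Q and WT. Between the mutant groups Trem2 differed by -0.01 ± 0.14 (approximate 95% interval -0.28 to 0.25, adjusted p = 0.96, edgeR quasi-likelihood).

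Clec7a (chr6:129461591-129472779, minus strand) encodes dectin-1, a receptor for fungal beta-glucan that signals through Syk and Card9. It had 1.23, 3.59, 2.13, 1.34 and 0.791 CPM in 82Q_M120A, 0.855, 0.854, 0.913, 1.05 and 0.806 in 82Q, and 0.325, 0.498, 0.470, 0.307 and 0.0802 in WT. The 82Q libraries lay close together, whereas 82Q_M120A spread 4.54-fold, with 82Q_M120A-2 at the top and 82Q_M120A-5 below all 82Q libraries. The difference from WT was 2.35 ± 0.39 in 82Q_M120A and 1.34 ± 0.40 in 82Q. In 82Q_M120A against 82Q it was 1.01 ± 0.35 (interval 0.33 to 1.69) and missed the threshold (adjusted p = 0.0551, edgeR). DESeq2 called this difference (1.02, adjusted p = 0.0210), and over all alternatives adjusted p ranged from 0.0153 to 0.147. The 82Q difference from WT was itself not called in 6 of the alternatives, limma-voom and the leaving out of WT-1 or WT-4 among them.

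Itgax (chr7:128129547-128150657, plus strand) encodes CD11c, the integrin alpha chain that pairs with the beta2 chain of Itgb2. CPM were 1.01, 1.92, 2.04, 0.689 and 1.38 in 82Q_M120A, 1.42, 1.54, 1.79, 1.93 and 1.28 in 82Q, and 0.200, 0.199, 0.210, 0.209 and 0.107 in WT. The lowest mutant library, 82Q_M120A-4, was above the highest WT library, and the 82Q libraries fell within the span of 82Q_M120A. The difference from WT was 2.87 ± 0.29 in 82Q_M120A and 3.04 ± 0.29 in 82Q, on 627, 663 and 66 summed counts in 82Q_M120A, 82Q and WT. Between the mutant groups the difference was -0.18 ± 0.23 (interval -0.62 to 0.27, adjusted p = 0.644, edgeR). Its beta chain gene Itgb2 was called higher in 82Q_M120A (0.90 ± 0.11) and in 82Q (0.87 ± 0.11), and the sister alpha chain gene Itgam, which lies 11.1 kb from Itgax, by 0.50 and 0.59. Itgal, another alpha chain of the family, was not called against WT (0.17 ± 0.15 in 82Q_M120A and -0.36 ± 0.16 in 82Q) but was higher in 82Q_M120A than in 82Q by 0.53 ± 0.15 (adjusted p = 0.0211, edgeR).

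Cd22 (chr7:30865402-30880342, minus strand) encodes a sialic acid-binding receptor that restrains signalling in B cells and, in aged mouse microglia, phagocytosis. It is the least abundant receptor here, with 190 summed counts in 82Q_M120A, 144 in 82Q and 19 in WT, which came to 0.354, 0.653, 0.429, 0.262 and 0.469 CPM in 82Q_M120A, 0.266, 0.386, 0.390, 0.317 and 0.375 in 82Q, and 0.025, 0.0854, 0.0742, 0.0558 and 0.0267 in WT. The difference from WT was 2.92 ± 0.32 in 82Q_M120A and 2.61 ± 0.33 in 82Q. The mutant groups overlapped (difference 0.31 ± 0.23, adjusted p = 0.394, edgeR) and neither overlapped WT. The B cell marker Ms4a1 was sparse beside it, with 21, 17 and 17 summed counts in 82Q_M120A, 82Q and WT (named after its values were seen). Cd22 overlaps the antisense gene Gm29439, not analysed here. Of its relatives, Cd33 was higher by 0.89 ± 0.10 in 82Q_M120A and 0.66 ± 0.10 in 82Q, and Siglecf by 0.61 and 1.10, while Siglece and Siglec1 were not called in either. Ptpn6, the phosphatase that CD22 recruits, was higher by 0.74 and 0.64, and the kinase gene Lyn lower by 0.30 and 0.29.

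Axl (chr7:25757273-25788705, minus strand), a receptor tyrosine kinase that takes up apoptotic cells through the bridging ligand Gas6, behaved unlike the other members. Its CPM were 50.1, 59.9, 58.5, 57.5 and 55.6 in 82Q_M120A, 61.0, 64.0, 62.3, 65.3 and 58.9 in 82Q, and 57.2, 57.3, 57.8, 54.6 and 55.6 in WT. The 82Q libraries lay above all WT libraries by a small margin, and 82Q_M120A straddled WT. Against WT the log2 fold change was -0.01 ± 0.04 in 82Q_M120A (0.04 without TMM) and 0.14 ± 0.04 in 82Q, where the call depended on WT-4, WT-5, 82Q-2 and 82Q-4. In 82Q_M120A against 82Q Axl fell by 0.15 ± 0.04 on the log2 scale (1.11-fold, adjusted p = 0.0219, edgeR), and lost the call when only these 2 groups were fitted (adjusted p = 0.0562) or without 82Q-4 (0.0577). Per kilobase of annotated exon Axl stood at 11.2, 12.4 and 11.2 CPM in 82Q_M120A, 82Q and WT, above Trem2 at 1.74, 1.75 and 0.747. In 82Q_M120A the order of mean level per kilobase went on with Cst7 (1.37 CPM), Ccl3 (1.08), Ccl4 (0.763), Clec7a (0.689), Itgax (0.293), Lpl (0.277), Mmp12 (0.0902) and Cd22 (0.0859). Only the steps from Axl to Trem2 and from Lpl to Mmp12 were larger than the SD between libraries of both neighbours in that order. After Trem2 the order was Ccl3, Ccl4, Cst7, Clec7a, Itgax, Lpl, Mmp12 and Cd22 in 82Q, and Ccl3, Clec7a, Ccl4, Lpl, Cst7, Itgax, Cd22 and Mmp12 in WT. Of the other TAM genes, Tyro3, the family member of neurons, was higher by 0.41 ± 0.06 in 82Q_M120A and 0.33 ± 0.06 in 82Q, and the ligand gene Pros1 by 0.32 and 0.35. Mertk was not called in either, and Gas6 was called lower in 82Q_M120A (-0.21 ± 0.07) and not in 82Q (-0.05 ± 0.07).

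Signalling partners of the receptors were taken as whole lists. Beside the counts called against WT in these and later lists stand the shares of all tested genes. These were 18.6% higher and 17.8% lower in 82Q_M120A, and 8.63% higher and 10.1% lower in 82Q. Of 13 genes around Trem2, 7 were called higher and 1 lower in 82Q_M120A against WT, and 9 higher, with 4 not called, in 82Q against WT (median log2 fold change 0.37 and 0.52, beside 0.01 for all tested genes). The adaptor gene Tyrobp was higher by 1.22 ± 0.12 and 1.09 ± 0.12 in 82Q_M120A and 82Q, close to Trem2 itself. The lipid phosphatase gene Inpp5d rose by 0.53 and 0.69, Vav1 by 0.71 and 0.55, and Syk by 0.50 and 0.56. Apoe, a lipid carrier and ligand of Trem2, rose by 0.35 and 0.40, and Spi1, which encodes PU.1, by 0.66 and 0.52. Adam17, a protease that sheds Trem2, was lower in 82Q_M120A than in WT (-0.23 ± 0.04) and than in 82Q (-0.25 ± 0.04, adjusted p = 0.000476, edgeR), and was not called in 82Q against WT (0.02 ± 0.04). Of 7 genes around dectin-1, 4 were higher and 3 not called in each comparison with WT, with Fcer1g, an adaptor of receptors for antibody, at 1.33 ± 0.09 in 82Q_M120A and 0.78 ± 0.09 in 82Q.

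Lpl (chr8:68880491-68907448, plus strand) encodes lipoprotein lipase, which frees fatty acids from lipoprotein triglyceride. It had 2.57, 3.31, 3.57, 1.69 and 3.38 CPM in 82Q_M120A, 2.68, 2.72, 2.33, 2.81 and 2.39 in 82Q, and 0.913, 1.04, 0.878, 0.474 and 1.15 in WT. The WT library that was lowest, WT-4, is also the WT library with little choroid plexus RNA (26.3 CPM, against 1610 or more in the other WT libraries). With a covariate for choroid plexus RNA, an alternative chosen after seeing the data, the difference from WT was 1.77 in 82Q_M120A and 1.58 in 82Q, against 1.73 ± 0.21 and 1.56 ± 0.21 without it. Between the mutant groups Lpl differed by 0.17 ± 0.19 (interval -0.20 to 0.55, adjusted p = 0.586, edgeR). Of 13 tested genes of lipase partners and lipid handling, 5 were higher and 2 lower in 82Q_M120A and 2 higher and 2 lower in 82Q. Their median log2 fold change against WT was 0.04 in 82Q_M120A and -0.01 in 82Q. Of all tested genes, 36.4% and 18.7% were called in either direction. The cholesterol exporter gene Abca1 rose by 0.69 and 0.56, and the lipid droplet gene Plin2 was higher in 82Q_M120A against both WT (0.53) and 82Q (0.55 ± 0.07, adjusted p = 4.92e-05, edgeR).

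Among the proteolysis genes, Cst7 (chr2:150570415-150578944, plus strand), which encodes cystatin F, an inhibitor of lysosomal cathepsins C, H and L, had the largest difference between the mutant groups. CPM were 1.1, 2.44, 1.3, 0.772 and 1.15 in 82Q_M120A, 0.518, 0.702, 0.657, 0.869 and 0.375 in 82Q, and 0.0625, 0.0854, 0.0866, 0.0836 and 0.0535 in WT. All but 82Q_M120A-4 lay above all 82Q libraries, and the WT libraries held 2 to 7 counts each. Summed counts were 584, 262 and 26, a ratio of 17.3 for 82Q_M120A over WT (95% exact interval 11.7 to 26.7, counting error only) and of 8.33 for 82Q over WT (5.56 to 13). The fitted log2 fold change was 4.11 ± 0.36 in 82Q_M120A and 3.02 ± 0.37 in 82Q against WT. In 82Q_M120A against 82Q Cst7 rose by 1.10 ± 0.26 (2.14-fold, interval 0.59 to 1.60, adjusted p = 0.00665, edgeR). The call held in each of the alternatives in which Cst7 was tested, with adjusted p from 0.00188 to 0.0283 and log2 fold changes from 0.78 to 1.24.

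The targets of cystatin F did not all follow it. Ctsh was higher in 82Q_M120A against WT (0.89 ± 0.10) and against 82Q (0.68 ± 0.10, adjusted p = 7.04e-05, edgeR) and not called in 82Q against WT (0.21). Ctsc was not called in any comparison (-0.08 in 82Q_M120A and 0.10 in 82Q against WT), and Ctsl was lower in 82Q by 0.23. Ctss, a cathepsin of microglia, was higher by 0.82 and 0.89. Cystatin C gene Cst3 was higher in 82Q by 0.33 and lower in 82Q_M120A than in 82Q by 0.42 (adjusted p = 7.69e-06, edgeR), the reverse of Cst7 in that comparison.

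Mmp12 (chr9:7344381-7369499, plus strand), macrophage elastase, was the member farthest from WT in 82Q. Its counts were 50, 84, 47, 32 and 68 in 82Q_M120A, 70, 97, 102, 121 and 45 in 82Q, and 4, 4, 8, 1 and 2 in WT. The WT libraries lay far below both mutant groups, which overlapped. Summed counts were 281 in 82Q_M120A, 435 in 82Q and 19 in WT. The fitted log2 fold change was 3.50 ± 0.40 in 82Q_M120A and 4.19 ± 0.39 in 82Q against WT. Corrected for depth, summed counts of 82Q_M120A stood 11.4 times WT (counting interval 7.16 to 19.2) and 82Q 18.9 times (12 to 31.8). Between the mutant groups Mmp12 differed by -0.69 ± 0.27 (interval -1.21 to -0.17) and was not called (adjusted p = 0.0815, edgeR). The levels of 82Q_M120A-2 and 82Q_M120A-5 lay among those of 82Q. Without 82Q_M120A-2 the difference was -0.975 (adjusted p = 0.00888, edgeR), and limma-voom gave -0.76 with adjusted p = 0.0473. Over all alternatives the difference ran from -0.975 to -0.551 and adjusted p from 0.00888 to 0.194. The end of Mmp12 overlaps Mmp1b on the other strand, and Mmp1b had 0 counts in all libraries. Other metalloproteinase genes were called in both directions: of 12 tested genes of the family and its inhibitors 2 were higher and 5 lower in 82Q_M120A, and 4 higher and 2 lower in 82Q, with Mmp24 higher by 0.38 and 0.23, the inhibitor gene Timp3 by 0.27 and 0.27, and Mmp8 lower by 2.07 and 1.52.

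The chemokine genes Ccl3 (chr11:83647844-83649355, minus strand) and Ccl4 (chr11:83662584-83664683, plus strand), which encode macrophage inflammatory proteins 1-alpha and 1-beta and lie 13.2 kb apart, stood higher side by side. Counts of Ccl3 were 60, 88, 93, 32 and 92 in 82Q_M120A, 40, 72, 49, 58 and 29 in 82Q, and 7, 10, 7, 8 and 3 in WT. Counts of Ccl4 were 40, 37, 68, 25 and 56 in 82Q_M120A, 39, 31, 42, 38 and 23 in 82Q, and 6, 7, 8, 0 and 1 in WT. No WT library reached a mutant library for either gene. Against WT the log2 fold changes were 2.99 ± 0.31 and 2.53 ± 0.32 for Ccl3 and 2.95 ± 0.38 and 2.69 ± 0.39 for Ccl4, in 82Q_M120A and 82Q. The mutant groups overlapped for both (Ccl3 0.46 ± 0.24, adjusted p = 0.202, and Ccl4 0.27 ± 0.28, adjusted p = 0.560, edgeR).

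Of 11 tested genes of a list of chemokines and their receptors, 7 were higher and 4 not called in 82Q_M120A, and 5 higher and 6 not called in 82Q. They included Ccl6 (1.43 and 1.25), Ccl12 (1.64 and 1.24) and the interferon-induced chemokine gene Cxcl10 (2.67 ± 0.44 and 1.64 ± 0.47). Ccl2 was not called (0.08 and -0.24). Of 6 immediate early genes, which handling of tissue can induce, Atf3 (0.95 and 0.76) and Arc (0.46 and 0.36) were higher in both groups, Fos was lower in 82Q_M120A (-1.70), and the summed level ran from 84.4 to 109 CPM in 82Q_M120A, 83.5 to 115 in 82Q and 86.0 to 125 in WT. The part of handling in the chemokine levels was not tested.

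**Figure D2:**
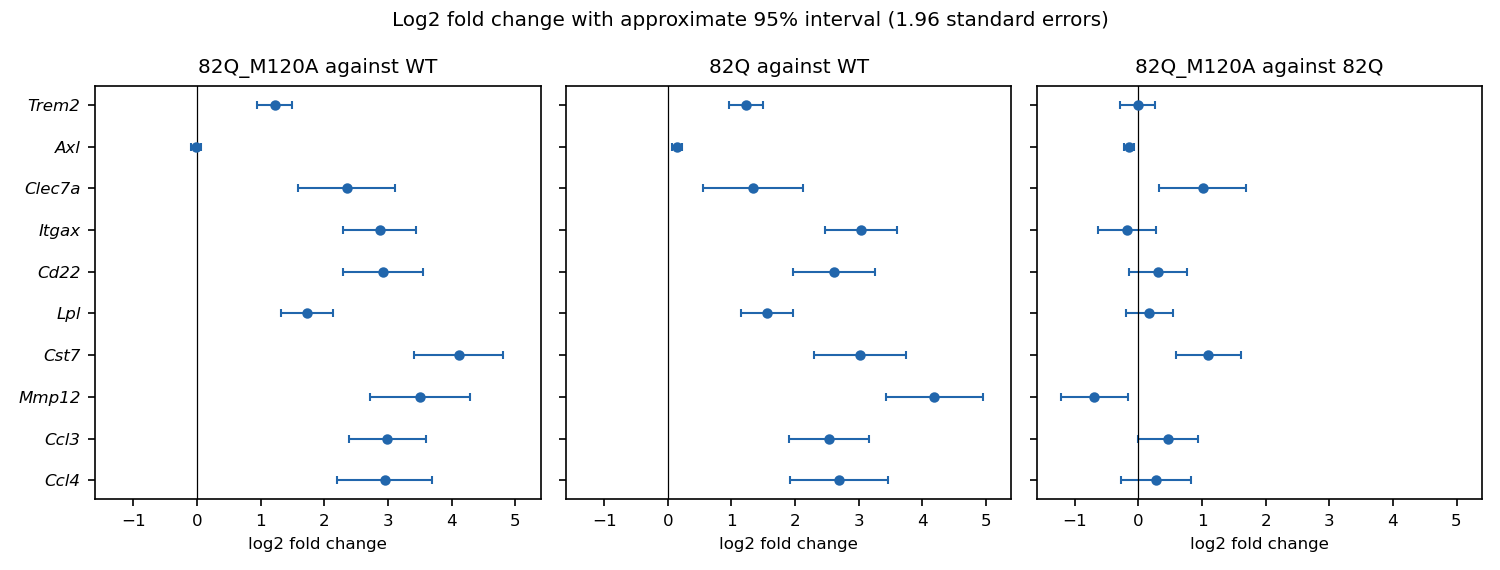
Log2 fold change (x axis) of each of the 10 genes in the 3 comparisons, with an approximate 95% interval. Against WT all but Axl lie above 1 in both panels, and in 82Q_M120A against 82Q Cst7, at 1.10, lies farthest to the right and Mmp12, at -0.69, farthest to the left.

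Compared directly, the mutant groups differed little over the group as a whole. In 82Q_M120A against 82Q, 1 of 10 members was called higher (Cst7) and 1 lower (Axl), while 10.3% of all tested genes were higher and 8.63% lower. That is near the background, and the mutant groups overlapped for all 10 members (6.63% of tested genes lay higher without overlap). Cst7 and Clec7a were over 2-fold higher, as were 1.3% of tested genes. The median log2 fold change was 0.22, beside -0.003 for all tested genes. Intervals of the difference for members that were not called still allow sizeable changes, up to 1.69 for Clec7a and 0.94 for Ccl3 and down to -1.21 for Mmp12, so a missed threshold does not show equal levels.

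A few libraries held most of the extremes of the members in the mutant groups. In 82Q_M120A, library 2 was the highest for 7 members and library 4 the lowest for 8. In 82Q, library 4 was the highest for 7 and library 5 the lowest for 8. In WT the extremes were divided, with WT-2 the highest for 5 and WT-3 for 4, and WT-4 and WT-5 the lowest for 4 each. The coefficient of variation was larger in 82Q_M120A than in 82Q for 10 of 10 members (median 35.4% and 16.1%), while 54.5% of all tested genes had the larger one in 82Q_M120A (median 6.75% and 6.31%). Among the homeostatic microglia genes it was larger for 11 of 16 (median 9.53% and 7.81%). In WT the median was 27.0% for the members, 7.47% for the homeostatic genes and 5.37% for all tested genes. Most members have low counts, and the part of counting error in these coefficients was not tested. The members share libraries, so the 10 are not independent, and the mixed strain of 82Q_M120A cannot be told apart from its genotype here. Neither 82Q_M120A-2 (12.1 CPM of choroid plexus genes) nor 82Q_M120A-4 (26.6 CPM) was choroid-rich, whereas 82Q-5 had 2070 CPM of choroid genes and the highest sum of monocyte and neutrophil genes (5.78 CPM, against 1.45 to 1.90 in the other 82Q libraries). Choroid genes summed to 2760 CPM in 82Q-2, which was the lowest for 0 members, and to 73.3 CPM in 82Q-4. The part of choroid plexus, monocyte and neutrophil RNA in the order of libraries was not tested.

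Homeostatic microglia genes moved with the members, by less at the median of the list. Their summed level, over 16 genes, was 231 to 265 CPM in 82Q_M120A, 237 to 252 in 82Q and 157 to 175 in WT. Of the 16, 10 were called higher and 1 lower in 82Q_M120A and 15 higher and 1 not called in 82Q (median log2 fold change 0.59 and 0.51). In 82Q_M120A against WT Fcrls (3.03 ± 0.16) and C1qb (1.30 ± 0.07) stood above the member Trem2 (1.22). In 82Q they were at 0.77 and 0.85. Csf1r, the receptor for the survival factor of microglia, rose by 0.65 ± 0.05 and 0.69 ± 0.05 and the fractalkine receptor gene Cx3cr1 by 0.60 and 0.68. P2ry12 was higher than WT in 82Q (0.37 ± 0.07) and was not called in 82Q_M120A (0.16 ± 0.07). Tmem119 was higher than WT in 82Q (0.26 ± 0.06) and was the gene called lower in 82Q_M120A (-0.22 ± 0.06). Direct comparison of the mutant groups showed Tmem119 lower in 82Q_M120A by 0.48 (adjusted p = 9.83e-06), P2ry12 by 0.21 (0.0492) and Selplg by 0.28 (0.00704), and Fcrls higher by 2.26, Olfml3 by 0.75 and C1qb by 0.46 (edgeR). Set against this sum, the 9 members other than Axl amounted to 5.36% to 9.93% in 82Q_M120A, 5.86% to 7.79% in 82Q and 3.04% to 3.68% in WT.

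Gene by gene, the ratio to the homeostatic sum was 4.95 times that of WT in 82Q_M120A and 5.68 times in 82Q for Itgax, 11.8 and 5.56 times for Cst7, and 7.81 and 12.6 times for Mmp12. It was 3.51 and 1.77 times for Clec7a, 2.16 and 1.94 times for Lpl and 1.53 and 1.56 times for Trem2. Neither mutant group overlapped WT in these 6 ratios. Axl went the other way, at 0.659 and 0.734 times the WT ratio. A median over the members of the log2 ratio stood 2.40 above WT in 82Q_M120A and 2.03 above WT in 82Q. It was not taken from the group means behind the ratios above. Its spread between libraries was 0.46 and 0.31 (SD). These ratios are a description of bulk RNA and do not count cells.

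**Figure D3:**
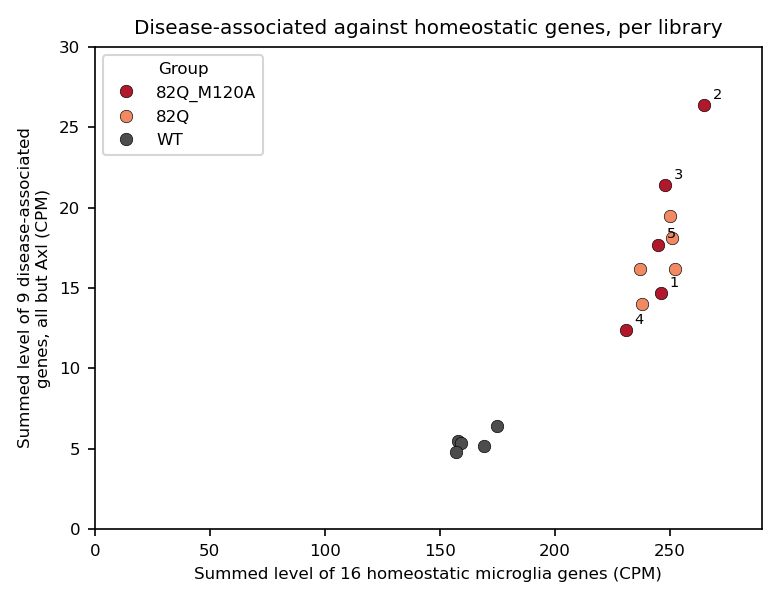
Summed CPM of the 9 members other than Axl (y axis) against summed CPM of 16 homeostatic microglia genes (x axis), 1 point per library, with the numbers of the 82Q_M120A libraries. On the y axis 82Q_M120A libraries span 12.4 to 26.4 CPM, 82Q libraries 14.0 to 19.5 and WT libraries 4.78 to 6.43, and 82Q_M120A is spread widest there.

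Other genes known to come on in activated microglia followed in part. Of 26 such genes, 19 were called higher and 1 lower in 82Q_M120A and 15 higher and 2 lower in 82Q (median 0.34 and 0.24). Cd68, a lysosomal protein of phagocytes, rose by 1.2 ± 0.11 and 1.01 ± 0.11, Cd52 by 1.67 and 1.40, and Lilrb4a by 1.32 and 1.38. Gpnmb, a glycoprotein of lipid-laden phagocytes, rose in 82Q_M120A against WT (1.43 ± 0.15) and against 82Q (1.15 ± 0.14, adjusted p = 1.74e-05, edgeR) and was not called in 82Q against WT (0.29, adjusted p = 0.203, edgeR). B2m, the light chain of class I molecules, was higher in 82Q_M120A against 82Q as well (0.45, adjusted p = 3.42e-05, edgeR), as was the adhesion gene Cadm1 (0.25, adjusted p = 0.00197, edgeR). Cd9 (-0.26, adjusted p = 0.00528) and Ch25h (-0.70, adjusted p = 0.0388, edgeR) were lower there. The class I gene H2-D1 was lower against WT, by 1.16 in 82Q_M120A and 0.86 in 82Q (named after its values were seen). Many of these 26, such as Apoe, Ctsb and Fth1, are also expressed by other brain cells.

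Markers of other immune cells were measured beside the members, whose sum without Axl was 12.4 to 26.4 CPM in 82Q_M120A, 14.0 to 19.5 in 82Q and 4.78 to 6.43 in WT. The 8 border macrophage genes summed to 23.0 to 26.2 CPM in 82Q_M120A, 24.8 to 31.2 in 82Q and 20 to 27.3 in WT, with 1 higher and 1 lower of 8 in 82Q_M120A and 2 higher in 82Q. Of the 8, 2 were lower in 82Q_M120A than in 82Q (Mrc1 and F13a1). The 7 monocyte and neutrophil genes in the table summed to 1.23 to 2.19, 1.45 to 5.78 and 0.882 to 1.85 CPM, and of 5 tested only Ccr2 was called, higher in 82Q_M120A against WT (0.76, adjusted p = 0.0109) and against 82Q (0.90, adjusted p = 0.00711, edgeR). The 7 lymphocyte genes summed to 0.703 to 0.963, 0.799 to 1.05 and 0.561 to 1.13 CPM. Of 6 dendritic cell genes, 4 were tested and 1 was called against WT, Zbtb46, which was lower in 82Q_M120A (-0.28) and in 82Q (-0.44). Zbtb46 and Flt3 were abundant, at 40.5 and 35 CPM in 82Q_M120A, 36.4 and 34.1 in 82Q and 49.3 and 36.9 in WT. The other 4 were sparse: Cd209a had 0.266, 0.282 and 0.247 CPM and Clec9a 0.239, 0.243 and 0.243 CPM in 82Q_M120A, 82Q and WT, and Xcr1 had 12, 18 and 17 and Ccr7 15, 22 and 10 summed counts (all but Zbtb46 named after their values were seen). The 5 proliferation genes summed to 2.36 to 4.12 CPM in 82Q_M120A, 3.12 to 4.27 in 82Q and 2.62 to 3.83 in WT. Of these markers none in the table was at 0 in all libraries, whereas the globin genes Hbb-bs, Hbb-bt, Hba-a1 and Hba-a2 were listed at 0, and the part of these cells in the members' levels was not tested.

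**Figure D4:**
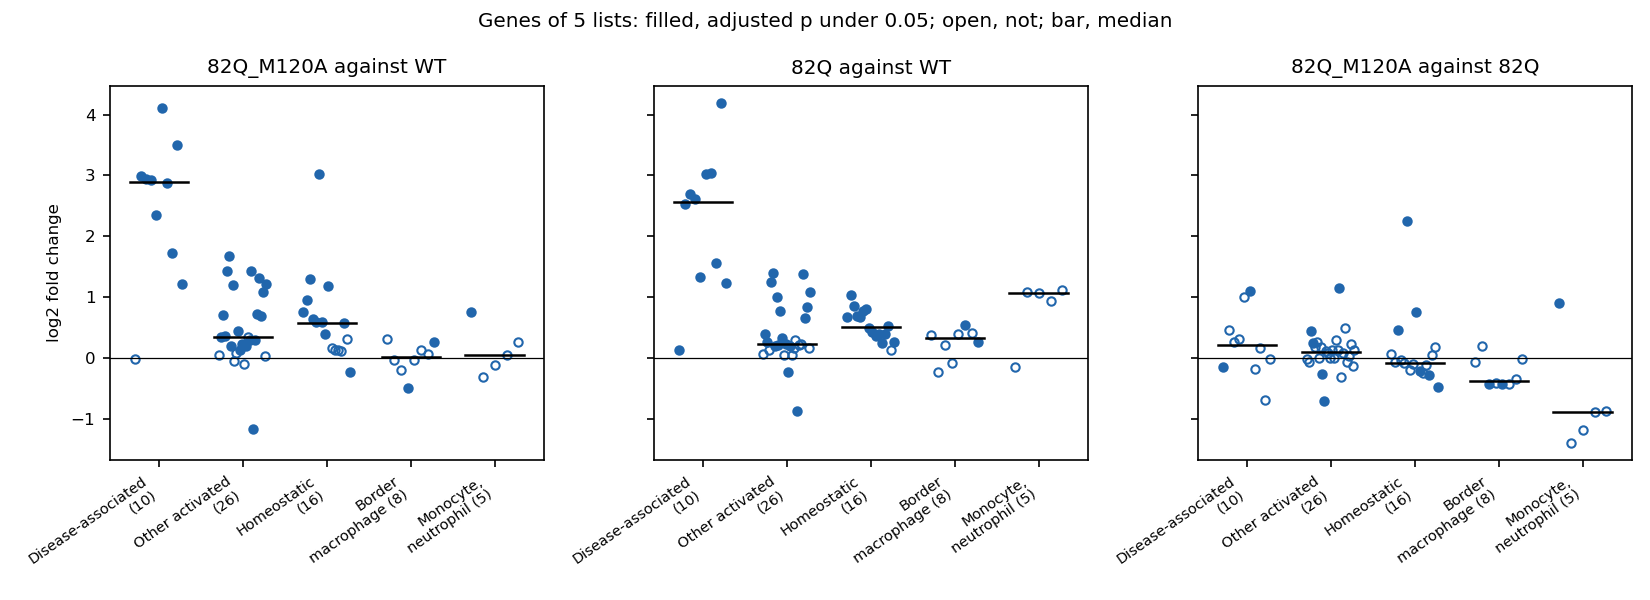
Log2 fold change (y axis) of the tested genes of 5 lists in the 3 comparisons, with filled points for adjusted p under 0.05 and a bar at the list's median. The disease-associated genes reach 4.11 in 82Q_M120A against WT and 4.19 in 82Q against WT, while the other activated genes lie at 1.67 or less, and the highest homeostatic gene is Fcrls at 3.03 in 82Q_M120A.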

How the data were processed

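The deposited file holds read counts per gene symbol, which the authors left unscaled. The submitters' processing notes list HISAT2 2.0.1, CASAVA 1.8, DESeq2 1.14.1, R 3.3.3, Subread, featureCounts and the mm10 build, without their roles. Annotation, strand setting and the treatment of multi-mapping reads have no mention in the sources used here. Column names give the group and no replicate number.

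Members and gene lists were chosen with earlier results of these data known. The text names all 10 members, and could name the genes of each list past the threshold with the smallest adjusted p, up to 6 per list and comparison, and any gene of 5 partner lists; genes outside this rule are marked as named after their values were seen. The main test was edgeR 4.0.16 (R 4.3.3; TMM, filterByExpr, robust quasi-likelihood, group only, two-sided); standard errors are the absolute log2 fold change over the root of F, and approximate 95% intervals are 1.96 of them, unadjusted. Ratios of summed counts have exact binomial 95% intervals that cover counting error only. Alternatives were DESeq2 1.42.0, limma-voom (limma 3.58.1), other scalings and filters, 2-group fits, each library left out and, added later, a choroid plexus covariate. The fit was tested on simulated data. All 30 pairs of libraries within groups differed by more than sampling noise (chi-square per degree of freedom 6.84 to 69.0). Gene coordinates are GENCODE M21 and promoters RefSeq, both on the mm10 assembly.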

Additional observations from a re-analysis of the deposited data

Results flagged for a closer look

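Itgax in WT-5 stood apart from the other WT libraries: 0.107 CPM, from 4 counts in the shallowest library, against 0.199 to 0.210 in the others, a gap of 0.893 of the group's range. It was the only one of 30 gene and group combinations of the members in which a single library stood this far off; chance alone does so in about 1 of 20 such groups. Without WT-5 the log2 fold change of Itgax against WT was 2.77 in 82Q_M120A and 2.95 in 82Q.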

How the results depend on the processing

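No paired analysis was possible because the columns carry no replicate number, so a replicate block was not run. Against WT, with genes kept only at a mean of at least 1 CPM, 4 members were called in 82Q_M120A and 5 in 82Q. Only Itgax, Lpl, Clec7a, Axl and Trem2 were then tested, and 5600 and 3055 of all genes were called. With 1 library left out at a time, the members called ranged from 9 to 9 in 82Q_M120A against WT, from 8 to 10 in 82Q against WT and from 1 to 3 in 82Q_M120A against 82Q, and the genes called from 5450 to 6454, 2567 to 3319 and 2562 to 3210 in the same comparisons. In 82Q_M120A against 82Q, a fit of only these 2 groups called 1 member. Over the single members, 225 of the values for 82Q_M120A against WT kept the call of the main fit. In 82Q against WT 215 did and 10 lost the call, all of Clec7a or Axl. In 82Q_M120A against 82Q 214 did, 9 gained a call (Clec7a or Mmp12) and 2 lost it (Axl). Members called in the main fit kept their direction, whereas differences near 0 that were not called could change sign. With 1 library left out, Axl ran from -0.031 to 0.034 in 82Q_M120A against WT. Trem2 ran from -0.146 to 0.075 in 82Q_M120A against 82Q. With library size as the only scaling, 68.8% of called genes were higher in 82Q_M120A against WT and 73% in 82Q against WT, beside 51.1% and 46.2% with TMM. Relative to homeostatic genes without Fcrls, Tmem119, C1qa and C1qb, the median member stood 2.53 above WT in 82Q_M120A and 2.09 in 82Q on the log2 scale. The choroid plexus covariate, chosen after seeing the data, left 9, 9 and 3 members called in the 3 comparisons. Of all tested genes it called, in the same order, 5438 in 82Q_M120A against WT, 3352 in 82Q against WT and 2998 in 82Q_M120A against 82Q. The causes of these changes of call were not tested. Counts of 0 to 8 per WT library limit the precision of Mmp12, Cst7, Ccl4 and Cd22.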
